A study of Homo sapiens with 12 samples.

Results

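Solute carriers (SLC) are the membrane proteins that move ions, metals, sugars, nucleotides, vitamins, lipids and drugs across cellular membranes. The genes described here are those whose array symbol starts with SLC and a number, leaving out the families SLC1A, SLC2A, SLC3A, SLC7A, SLC16A, SLC25A, SLC36A, SLC38A and SLC43A and the genes SLC45A3 and SLC26A2. The array carried 265 such symbols. Of these, 144 had a probe with a detection p under 0.05 on at least 3 of the 12 arrays and were tested, among 11517 tested genes in all, and the other 121 did not pass. A gene with several such probes was represented by the brightest, and levels are normalized log2 intensities, which cannot be compared between genes because each probe has its own brightness. LNCaP cells, an androgen-responsive human prostate cancer line from a lymph node metastasis, were profiled on Illumina HumanHT-12 V4 BeadChips in 4 groups of 3 samples. All cells were first kept for 48 h without steroids in medium with charcoal-stripped serum and no phenol red, and were then treated for 48 h. The groups received both drugs, 10 nM R1881 alone, 100 nM Torin 1 alone, or the vehicles ethanol and DMSO. R1881 (metribolone) is a synthetic androgen, and Torin 1 is an inhibitor of the kinase mTOR that acts at its ATP site. The labels do not say whether the 3 samples of a group came from separate cultures, so the p-values measure only how much these samples varied.

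Most solute carriers sit in the plasma membrane and couple uptake or export to a gradient of sodium or protons, or let substrates pass down their own gradient. Others serve the Golgi, the endoplasmic reticulum, lysosomes or mitochondria, for example the SLC35 family, which brings nucleotide sugars into the Golgi for glycan synthesis. Prostate epithelium is known for its high zinc content. Zinc enters the cytosol through the SLC39 (ZIP) family and leaves it through the SLC30 (ZnT) family.

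The arrays had median signals of 93.8 to 107, with 16681 to 18868 probes detected on each, and the lowest correlation between arrays of 1 group was 0.9911. All 6 luminal markers analysed (KRT8, KRT18, HOXB13, FOLH1, EPCAM and CDH1) were detected on all 12 arrays. Their summed level was 6590 to 6680 with both drugs, 5490 to 6180 with R1881, 5780 to 6860 with Torin 1 and 5160 to 6080 with vehicle. Of 4 basal markers KRT5, KRT14 and KRT15 were detected on no array and ITGB4 on 3, and their summed level lay between 79.7 and 93.7 in all groups. Of 7 stromal markers VIM and ACTA2 were detected throughout, COL1A1 on 3 arrays, COL3A1 on 2 and COL1A2, DCN and LUM on 1 each. The summed stromal level was 438 to 477 with both drugs, 652 to 690 with R1881, 779 to 825 with Torin 1 and 497 to 527 with vehicle. Of 3 endothelial markers VWF was detected throughout and PECAM1 and CDH5 on no array. Their summed level was 73.4 to 75.5 with both drugs, 98.0 to 109 with R1881, 96.3 to 113 with Torin 1 and 173 to 194 with vehicle. Of 4 immune markers PTPRC was detected on 3 arrays, LYZ on 1 and CD3E and CD14 on none, and their summed level lay between 85.4 and 97.6 in all groups. All samples were of the LNCaP line, and these sums measure RNA of the listed genes, not numbers of stromal or endothelial cells. The part of these shifts in the results below was not tested. In bulk RNA fewer cells holding such RNA cannot be told apart from less RNA per cell.

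With R1881 against vehicle, 53 of the 144 solute carriers passed the test (limma, Benjamini-Hochberg adjusted p under 0.05 over all genes), 31 higher and 22 lower, which is 36.8% against 37.2% of all genes tested, where 15.8% were higher and 21.5% lower. With Torin 1 against vehicle 47 passed, 23 higher and 24 lower, which is 32.6% against 31.9% of all genes (16.2% higher, 15.7% lower). With both drugs against R1881 69 passed, 30 higher and 39 lower (47.9% against 45.4% of all genes, 23.1% higher and 22.3% lower), and with both drugs against Torin 1 65 passed, 33 higher and 32 lower (45.1% against 45.1% of all genes, 18.7% higher and 26.3% lower). With both drugs against vehicle 77 passed, 39 higher and 38 lower (53.5% against 50.8% of all genes, 22.7% higher and 28.1% lower). The effect of R1881 differed with and without Torin 1 (interaction term) for 27 members, 11 with a positive and 16 with a negative term, which is 18.8% against 14.9% of all genes (7.87% positive, 7.08% negative). In 5 of the 27 the probe was detected on no array of at least 1 group, so their terms have no measured size, and the other 22 split into 10 positive and 12 negative. As a group the solute carriers thus changed about as often as other genes, and the account turns on which carriers changed and by how much. The median change of the members was 0.061 with R1881 against vehicle, where that of all genes was -0.034, and 0.0085 with Torin 1 against vehicle, where that of all genes was 0.0176. The split into higher and lower depends on the scaling. With arrays scaled to equal medians in place of equal distributions, the median of all genes moved to -0.18 for R1881 against vehicle, to -0.16 for both drugs against Torin 1 and to -0.20 for both drugs against vehicle. The members then split into 15 higher and 36 lower for R1881 against vehicle and into 22 higher and 37 lower for both drugs against Torin 1. For Torin 1 against vehicle that scaling gave 12 higher and 25 lower, for both drugs against vehicle 22 higher and 53 lower, and for the interaction 10 positive and 6 negative. The calls followed were the 261 of members in the interaction and in the pairwise comparisons other than both drugs against vehicle. None changed sign under the alternatives that tested its gene.

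**Figure D1:**
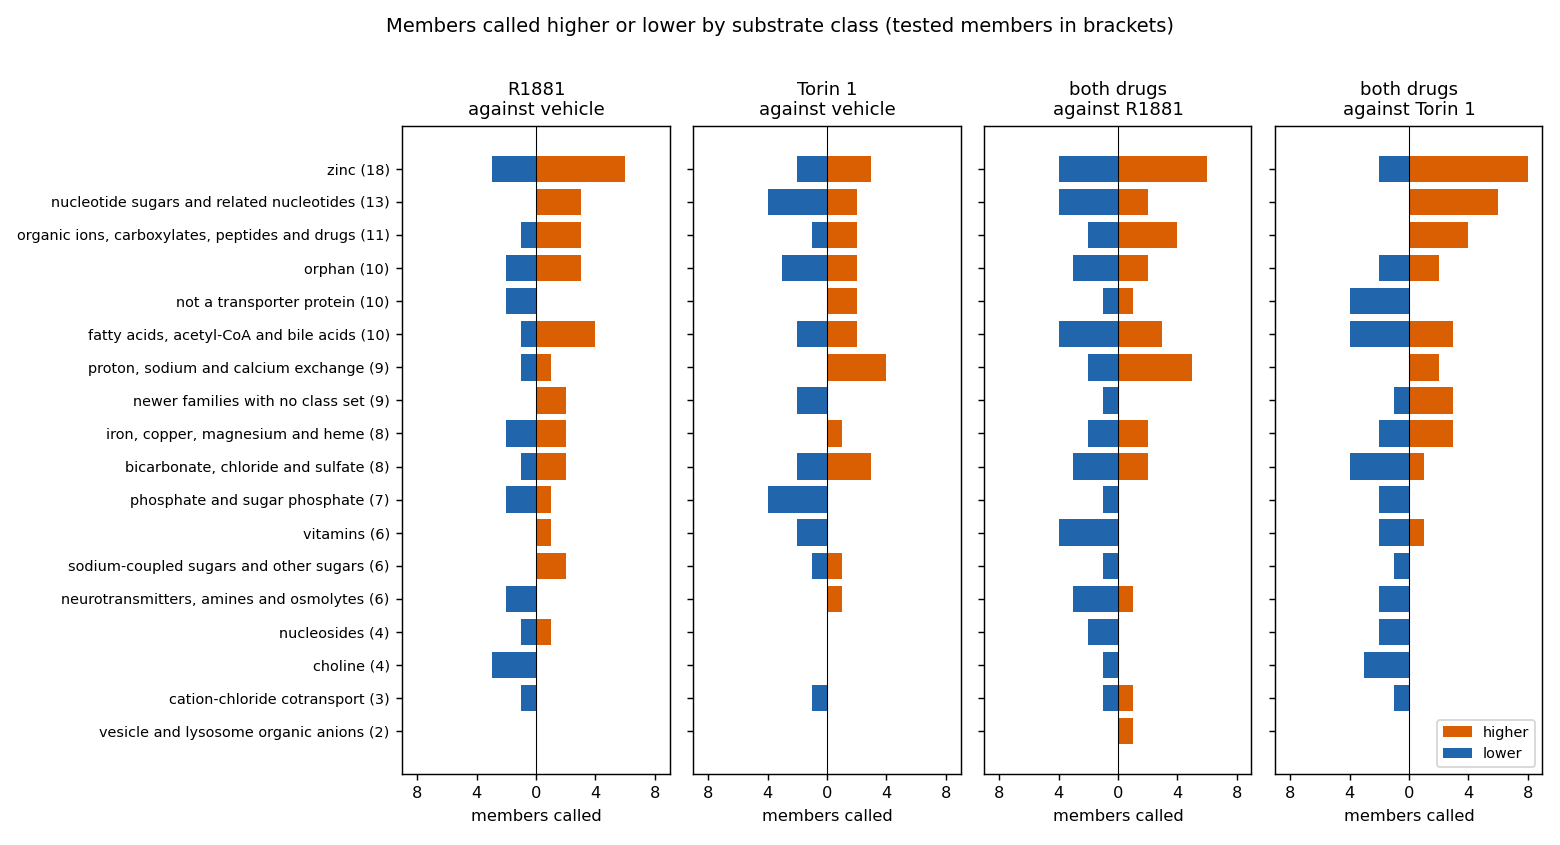
Number of solute carriers called higher (orange, to the right) or lower (blue, to the left) in each substrate class and comparison; the number of tested members stands in brackets after the class. Zinc transporters had 6 higher and 3 lower with R1881 against vehicle, and the choline transporters 0 higher and 3 lower, or 1 lower without R1881 array 1, where 21.5% of all genes were lower.

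The largest rises with R1881 among the 144 were in single carriers of different substrates. SLC41A1, a magnesium transporter of the plasma membrane, measured 8.85, 8.93 and 8.93 with R1881, against 6.01, 6.09 and 6.09 with vehicle, so the groups were far apart (7.17-fold higher, log2 change 2.84 ± 0.085 SE, adjusted p = 1.51e-11). With both drugs it measured 8.84, 8.77 and 8.71, against 6.01, 6.08 and 6.30 with Torin 1 (6.23-fold higher, adjusted p = 2.17e-11). Torin 1 itself gave a log2 change of 0.067 against vehicle (adjusted p = 0.6). SLC35F2, an orphan carrier known as the entry route of the drug YM155, measured 10.92, 10.72 and 10.89 with R1881, against 8.89, 8.90 and 9.09 with vehicle (3.69-fold higher, adjusted p = 8.99e-10). With both drugs SLC35F2 lay at 10.16, 10.28 and 10.29, below every R1881 array (1.52-fold lower, adjusted p = 5.75e-05) and above the Torin 1 arrays at 8.62, 8.66 and 8.69 (3.0-fold higher, adjusted p = 3.23e-09). Its second probe gave log2 changes of 2.12 with R1881 against vehicle and 1.74 with both drugs against Torin 1. SLC26A3, the chloride and bicarbonate exchanger of the colon, was detected on all 3 R1881 arrays (5.90, 5.89 and 6.08) and on no vehicle array (4.29, 4.27 and 4.28), which makes it at least 2.38-fold higher with R1881 (adjusted p = 1.66e-08). A bound of this kind sets the detected group against the dimmest probes above background on the arrays of the other group. With both drugs SLC26A3 was again detected on all 3 arrays and with Torin 1 on none, at least 2.38-fold higher (adjusted p = 1.28e-08). SLC26A3 passed the filter through the arrays with androgen alone, so the filter favoured these differences and the p-values add no support. For all 3 genes the arrays with androgen lay above all those without it, and the interaction terms of SLC41A1 and SLC35F2 were not called.

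The promoters of these 3 genes, all with a promoter in the RefSeq table, are shown because they belong to the largest androgen rises among the members. Each runs from 250 bases before to 50 bases after the annotated start (GRCh38.p14, RefSeq, minus strand, 5′ to 3′): chr1:205813149-205813448, chr11:107858738-107859037 and chr7:107803174-107803473. Capitals mark matches, on either strand, to TGCNCNC, a loose form of the core of metal response elements; no stretch was matched by AGAACA, the hexamer that steroid receptors bind in pairs, and none by the E-box CACGTG.
SLC41A1: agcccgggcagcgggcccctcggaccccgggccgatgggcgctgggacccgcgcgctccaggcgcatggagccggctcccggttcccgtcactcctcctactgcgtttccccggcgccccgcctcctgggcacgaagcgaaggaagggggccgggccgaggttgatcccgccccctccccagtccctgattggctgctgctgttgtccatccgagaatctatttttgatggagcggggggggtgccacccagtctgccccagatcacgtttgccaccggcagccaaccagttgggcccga
SLC35F2: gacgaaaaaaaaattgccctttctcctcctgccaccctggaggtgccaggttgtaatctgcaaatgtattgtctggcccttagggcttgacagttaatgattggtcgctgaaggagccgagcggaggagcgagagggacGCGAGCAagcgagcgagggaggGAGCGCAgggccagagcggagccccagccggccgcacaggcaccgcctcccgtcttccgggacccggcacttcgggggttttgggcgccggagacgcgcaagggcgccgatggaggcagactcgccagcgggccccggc
SLC26A3: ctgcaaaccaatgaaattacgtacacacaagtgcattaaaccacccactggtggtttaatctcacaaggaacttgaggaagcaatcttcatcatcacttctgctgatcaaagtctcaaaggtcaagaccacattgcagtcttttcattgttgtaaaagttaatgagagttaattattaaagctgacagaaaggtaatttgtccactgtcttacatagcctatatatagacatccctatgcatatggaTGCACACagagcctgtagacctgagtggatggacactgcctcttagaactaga

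The SLC35F2 window held 2 such matches and the SLC26A3 window 1. Over all 27305 RefSeq promoters a share of 55.2% held the metal core, 14.9% the steroid receptor hexamer and 7.43% the E-box. Among the 31 members called higher with R1881, 27 had a promoter in the table, of which 51.9% held the metal core, 7.41% the hexamer and 7.41% the E-box. Among the 22 called lower, 19 had one, of which 63.2% held the metal core, 5.26% the hexamer and 5.26% the E-box. A match in so short a window is a description of its letters and no more.

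**Figure D2:**
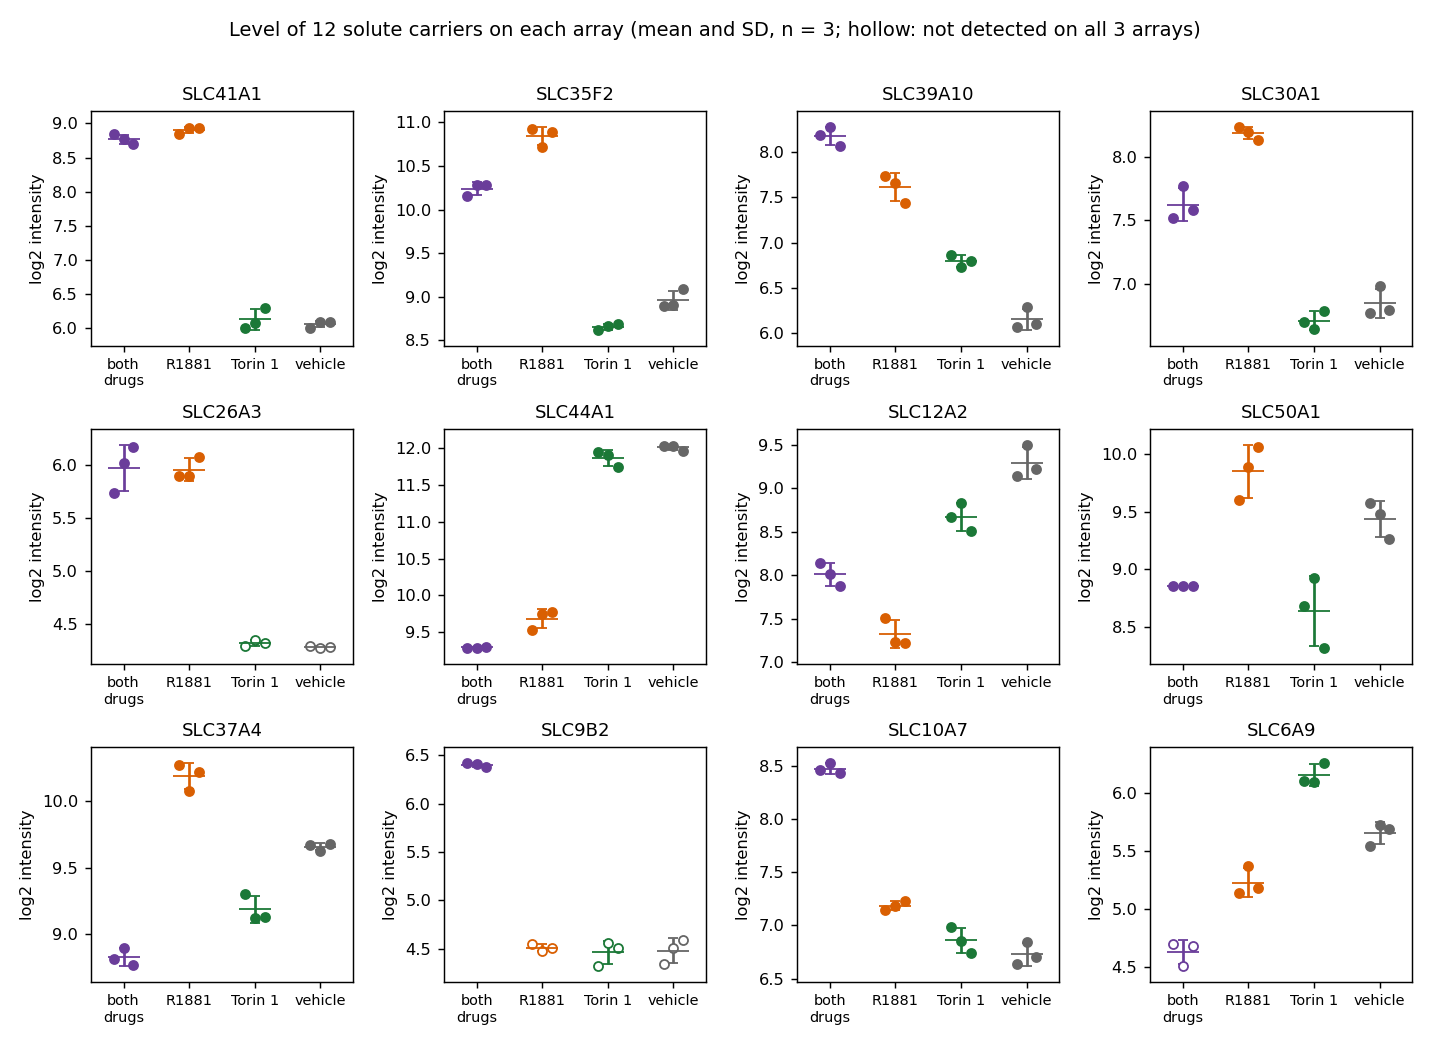
Normalized log2 intensity of 12 solute carriers on each of the 12 arrays; points are arrays, bars the mean and SD of 3, and hollow points stand for groups in which the probe was not detected on all 3 arrays. The SLC41A1 arrays with androgen lay near 8.77 and 8.91 and those without it near 6.13 and 6.06, and SLC9B2 was detected with both drugs alone.

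Zinc transporters were the largest class, with 18 of 24 symbols tested. With R1881 6 of them rose and 3 fell against vehicle, a split that became 5 and 5 under median scaling. Of all genes 15.8% were higher and 21.5% lower with R1881. SLC39A10, a zinc importer, measured 7.74, 7.66 and 7.44 with R1881, against 6.07, 6.28 and 6.10 with vehicle (2.76-fold higher, adjusted p = 4.57e-08). It was the one member among the largest rises in all of R1881 against vehicle, Torin 1 against vehicle and both drugs against Torin 1. With both drugs it measured 8.20, 8.28 and 8.07 and with Torin 1 6.87, 6.73 and 6.80, so the 4 groups stood in the order both drugs, R1881, Torin 1 and vehicle with no overlap between neighbours. Torin 1 raised it by 0.65 against vehicle (adjusted p = 0.000215), and the interaction term was -0.079 (adjusted p = 0.752), so additive effects of the 2 agents were not rejected. SLC39A6 (LIV-1), which forms a complex with SLC39A10, had the same order of group means, 8.59 ± 0.11 with both drugs, 8.30 ± 0.064 with R1881, 7.94 ± 0.13 with Torin 1 and 7.52 ± 0.18 with vehicle (SD, n = 3). Its rise with R1881 was 1.72-fold (adjusted p = 4.16e-05). Its rise of 0.29 with both drugs against R1881 was lost without R1881 array 2 or 3 or both-drug array 2 or 3 (log2 changes of 0.25 to 0.27, adjusted p of 0.0809 to 0.105).

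SLC30A1 (ZnT1), the exporter that carries zinc out of the cell, measured 8.23, 8.20 and 8.13 with R1881, against 6.77, 6.98 and 6.79 with vehicle (2.54-fold higher, adjusted p = 4.69e-08). With both drugs it measured 7.51, 7.77 and 7.58, between the R1881 arrays and those with Torin 1 at 6.69, 6.64 and 6.79. It was thus 1.48-fold lower with both drugs than with R1881 (adjusted p = 0.000152) and 1.88-fold higher than with Torin 1 (adjusted p = 1.62e-06). The importer SLC39A10 was higher with both drugs than with R1881, and the exporter SLC30A1 was lower. Its second probe gave 1.19 with R1881 against vehicle and -0.51 with both drugs against R1881. Smaller rises with R1881 were found for the importers SLC39A1 (0.62) and SLC39A4 (0.58) and for SLC30A7 (0.38), which loads zinc into the early secretory pathway. SLC39A4 fell by 0.56 with both drugs against R1881 (adjusted p = 0.00192), while SLC30A7 rose by 0.53 (adjusted p = 0.000578).

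SLC39A8 (ZIP8), an importer of zinc, manganese and cadmium, ran the other way. It measured 7.92, 7.90 and 8.0 with R1881, against 8.53, 8.62 and 8.53 with vehicle (1.53-fold lower, adjusted p = 0.000148). Torin 1 raised it to 8.87, 9.08 and 9.11 (1.38-fold higher than vehicle, adjusted p = 0.00212), and both drugs gave 8.44, 8.63 and 8.75, 1.58-fold higher than R1881 (adjusted p = 6.4e-05). The arrays with both drugs and with vehicle overlapped, and that difference was 0.045 (adjusted p = 0.718). Its second probe gave -0.66 with R1881 and 0.41 with Torin 1 against vehicle. SLC39A14 (ZIP14), a close relative that also imports iron, fell by 0.61 with Torin 1 against vehicle (adjusted p = 0.000512) and by 0.50 with both drugs against R1881 (adjusted p = 0.00115). Its fall of 0.32 with R1881 was lost without vehicle array 2 or 3 or R1881 array 2 or 3 (log2 changes of -0.31 to -0.27, adjusted p of 0.0643 to 0.0899). SLC39A11 fell by 0.60 with Torin 1 (adjusted p = 0.00176), with 5.73, 6.07 and 6.01 on the Torin 1 arrays, against 6.32, 6.79 and 6.52 with vehicle. SLC30A3, the zinc transporter of synaptic vesicles, fell by 0.56 with R1881 and was detected on 1 R1881 array and on all 3 with vehicle.

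SLC30A6 and SLC39A9, both of the secretory pathway, showed no called change with R1881 or Torin 1 alone. With both drugs SLC39A9 rose by 0.44 against R1881 (adjusted p = 0.00103) and by 0.43 against Torin 1 (adjusted p = 0.00112), with an interaction of 0.54 (adjusted p = 0.0102). SLC30A6 rose by 0.47 against Torin 1 (adjusted p = 0.00255), and its interaction term was 0.65 (adjusted p = 0.0103). SLC30A4, SLC30A5, SLC30A9, SLC39A3, SLC39A7 and SLC39A13 passed in none of the 4 comparisons that differ by 1 drug (R1881 or Torin 1 against vehicle, and both drugs against R1881 or against Torin 1). Their widest values were those of SLC39A7, the zinc release channel of the endoplasmic reticulum, at 0.43 ± 0.22 with R1881, and of SLC30A4 at -0.38 ± 0.24 with both drugs against R1881. With arrays scaled to equal medians the called zinc transporter changes lost were SLC30A7 for R1881 against vehicle (0.17, adjusted p = 0.408), SLC39A6 for Torin 1 against vehicle (0.30, adjusted p = 0.124), SLC39A8 for Torin 1 against vehicle (0.29, adjusted p = 0.134), SLC30A6 for both drugs against R1881 (0.30, adjusted p = 0.0704), SLC39A6 for both drugs against R1881 (0.22, adjusted p = 0.217), SLC39A9 for both drugs against Torin 1 (0.25, adjusted p = 0.0918), SLC39A11 for both drugs against Torin 1 (0.22, adjusted p = 0.231), SLC30A1 for the interaction (-0.40, adjusted p = 0.206) and SLC39A4 for the interaction (-0.54, adjusted p = 0.079). Across the class 8 members rose and 2 fell with both drugs against Torin 1, 3 rose and 2 fell with Torin 1 against vehicle, and 6 rose and 4 fell with both drugs against R1881. Of all genes 18.7%, 16.2% and 23.1% were higher and 26.3%, 15.7% and 22.3% lower in these comparisons, in that order. Zinc in the cytosol is buffered by metallothioneins. Of 7 tested genes of a zinc buffering list, 4 rose and 0 fell with R1881 (MT1X by 1.20, MT1F by 1.00), and 0 rose and 5 fell with Torin 1 (MT1G by 1.43, MT1X by 1.10), where 37.2% and 31.9% of all genes were called. Metallothionein probes may read near-identical copies, so single members are uncertain.

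**Figure D3:**
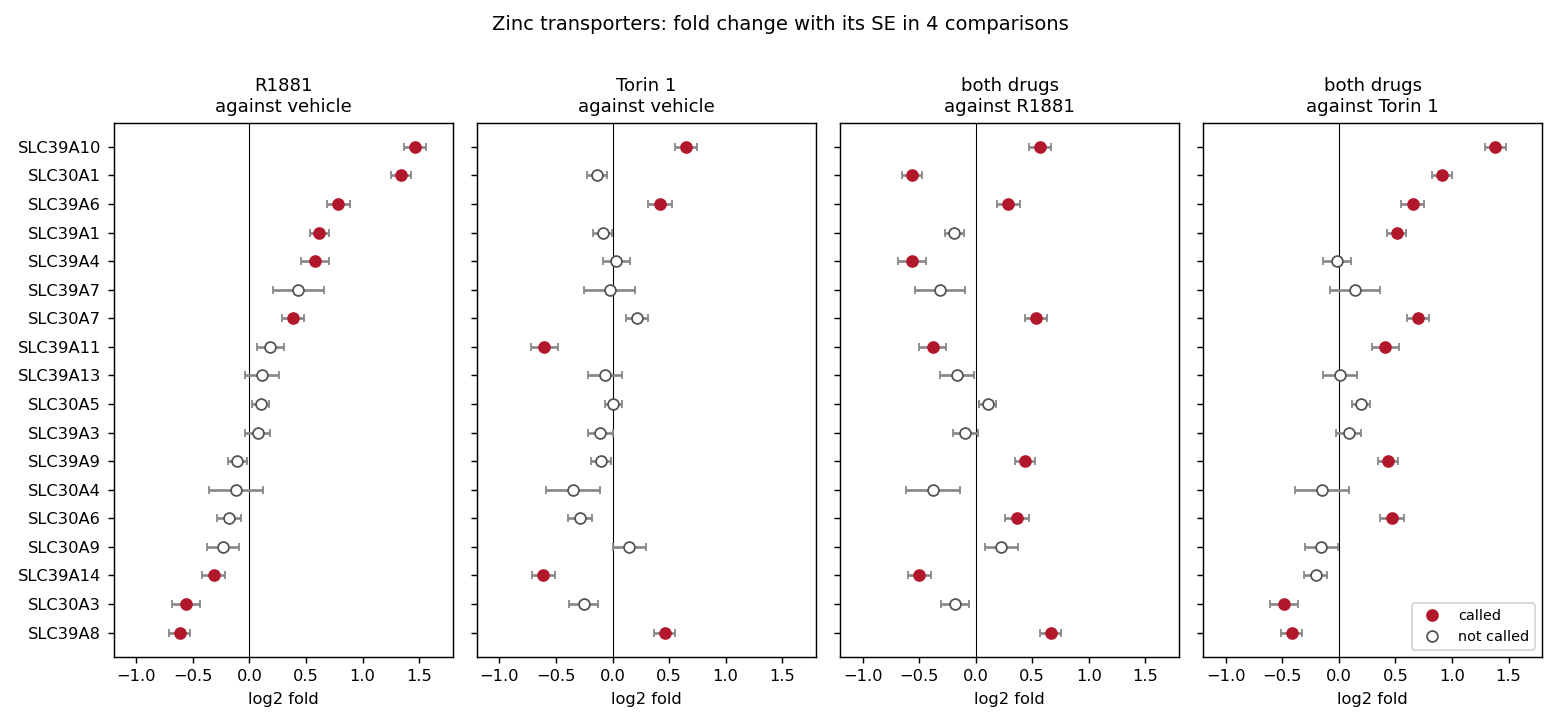
Log2 fold change with its SE (bars) of the 18 tested zinc transporters in 4 comparisons, ordered by the R1881 effect; filled points passed an adjusted p under 0.05. SLC39A10 rose by 1.46 and SLC30A1 by 1.34 with R1881, and SLC30A1 had -0.57 where SLC39A10 had 0.57 with both drugs against R1881.

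Of the 8 tested carriers of magnesium, copper, iron and heme, 2 rose and 2 fell with R1881. Of all genes 15.8% were higher and 21.5% lower there. Besides SLC41A1, the copper carrier SLC31A2 (CTR2) of internal membranes rose, with 6.68, 6.57 and 6.92 with R1881, against 6.0, 5.97 and 6.08 with vehicle (1.63-fold higher, adjusted p = 0.000111). SLC31A1 (CTR1), the copper importer of the cell surface, had -0.28 ± 0.32 (adjusted p = 0.537) and passed in none of the 4 comparisons. With R1881 the relatives of SLC41A1 fell. SLC41A3, which exports magnesium from mitochondria, measured 8.35, 8.21 and 8.01 with R1881, against 8.62, 8.55 and 8.71 with vehicle (1.35-fold lower, adjusted p = 0.00321), and SLC41A2 was 1.47-fold lower (adjusted p = 0.00468). Torin 1 raised SLC41A3 to 9.35, 9.19 and 9.08 (1.5-fold higher, adjusted p = 0.000614), and both drugs gave 8.70, 8.59 and 8.61, overlapping the vehicle arrays. SLC48A1, which moves heme out of lysosomes, fell by 0.49 with both drugs against Torin 1 (adjusted p = 0.00122), and SLC49A4 of the lysosomal membrane had an interaction of 0.52 (adjusted p = 0.00805), which median scaling left uncalled (0.59, adjusted p = 0.0647). SLC11A2 (DMT1), the iron importer, passed in no comparison, its widest value of the 4 being -0.19 with both drugs against R1881. Among 16 tested genes of an iron and copper handling list, 3 rose and 4 fell with R1881, where 37.2% of all genes were called. TFRC, the transferrin receptor, was 4.04-fold lower with both drugs than with R1881, and the metalloreductase STEAP4 was at least 6.82-fold higher with both drugs than with Torin 1.

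The deepest fall of a member with R1881 was in choline transport. SLC44A1 (CTL1), a choline transporter of the plasma membrane and mitochondria, measured 9.54, 9.75 and 9.77 with R1881, against 12.03, 12.04 and 11.97 with vehicle (5.01-fold lower, log2 change -2.32 ± 0.084 SE, adjusted p = 1.01e-10). With both drugs it measured 9.29, 9.29 and 9.30, against 11.95, 11.91 and 11.75 with Torin 1 (5.96-fold lower, adjusted p = 2.38e-11). Both drugs also lay below R1881, by 0.39 (adjusted p = 0.00172). Its second probe gave -2.30 and -2.32 for these 2 androgen effects, and Torin 1 alone had -0.14 against vehicle (adjusted p = 0.237). Of the other 3 tested members of the family, SLC44A3 fell by 0.46 and SLC44A2 by 0.49 with both drugs against Torin 1 (adjusted p = 0.00316 and 0.00124). With R1881 against vehicle the falls were 0.39 for SLC44A3, lost without R1881 array 1 (log2 change of -0.27, adjusted p = 0.0533), and 0.29 for SLC44A2, lost without vehicle array 1 or 2 or R1881 array 1 or 2 or 3 (log2 changes of -0.31 to -0.16, adjusted p of 0.0527 to 0.158). SLC44A4, which carries thiamine pyrophosphate in the colon, had 0.11 with R1881 and 0.26 with Torin 1 against vehicle (adjusted p = 0.541 and 0.126). No choline transporter was called with Torin 1 against vehicle. Of 8 tested genes of a list on choline and ethanolamine phospholipid synthesis, 3 rose and 0 fell with R1881. CHKA, choline kinase alpha, rose by 1.18. PCYT2 and SELENOI, both of the ethanolamine branch, rose by 0.81 and 0.28. With Torin 1 2 rose and 4 fell, PCYT2 by 1.16 and CHKA by 0.55. Of all genes 15.8% were higher with R1881 and 15.7% lower with Torin 1.

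SLC12A2 (NKCC1), which brings sodium, potassium and chloride into the cell, was among the largest falls with R1881 and with Torin 1. It measured 7.50, 7.23 and 7.22 with R1881, against 9.15, 9.50 and 9.22 with vehicle (3.92-fold lower, adjusted p = 2.14e-08), and 8.67, 8.84 and 8.51 with Torin 1 (1.54-fold lower than vehicle, adjusted p = 0.00165). Both drugs together gave 8.14, 8.02 and 7.88, above the R1881 arrays (1.61-fold higher, adjusted p = 0.000375) and below the Torin 1 arrays (1.58-fold lower, adjusted p = 0.000511). Torin 1 therefore lowered SLC12A2 without androgen and raised it with androgen, and the interaction term was 1.31 ± 0.17 SE (adjusted p = 0.000226). A second probe gave -1.47 with R1881 and -0.39 with Torin 1 against vehicle, 0.88 with both drugs against R1881 and an interaction of 1.27. The neighbouring noncoding transcript SLC12A2-DT fell by 0.76 with R1881 (adjusted p = 3.34e-06), with 6.12, 5.94 and 6.05 with R1881, against 6.80, 6.76 and 6.81 with vehicle. SLC12A9 passed none of the 4 comparisons, with 0.25 with R1881 against vehicle (adjusted p = 0.0658), and SLC12A8 had 0.092 there (adjusted p = 0.483).

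Sodium bicarbonate cotransporters, which bring base into the cell, differed in their response to Torin 1. SLC4A4 (NBCe1) had the largest rise of the 144 members with Torin 1 against vehicle, 2.13-fold, at 7.02, 7.03 and 7.22 with Torin 1, against 5.97, 6.10 and 5.93 with vehicle (adjusted p = 9.57e-06). It rose 2.61-fold with both drugs against R1881, at 7.26, 7.24 and 7.33 with both drugs, against 5.6, 6.0 and 6.07 with R1881 (adjusted p = 4.56e-07). R1881 gave -0.11 against vehicle (adjusted p = 0.488), and the arrays with Torin 1 all lay above those without it. SLC4A7 (NBCn1) went the other way. It was 1.32-fold lower with Torin 1 than with vehicle (adjusted p = 0.00632) and 2.07-fold lower with both drugs, at 7.04, 7.01 and 7.36, than with R1881, at 8.17, 8.15 and 8.24 (adjusted p = 1.52e-06). R1881 raised SLC4A7 by 0.34 without Torin 1 (adjusted p = 0.013), and the interaction was -0.64 (adjusted p = 0.00669). Its fall of 0.30 with both drugs against Torin 1 was lost without Torin 1 array 1 or both-drug array 1 or 2 (log2 changes of -0.25 to -0.24, adjusted p of 0.0802 to 0.0884). SLC4A5 (NBCe2) rose by 0.52 with Torin 1, a call lost without vehicle array 1 or 2 or Torin 1 array 3 (log2 changes of 0.32 to 0.50, adjusted p of 0.0653 to 0.0972). The anion exchanger SLC26A6 measured 8.35, 8.28 and 8.12 with Torin 1, against 8.98, 8.66 and 9.06 with vehicle (1.56-fold lower, adjusted p = 0.00154), and 7.96, 8.30 and 8.25 with both drugs, against 9.25, 8.96 and 9.01 with R1881 (1.87-fold lower, adjusted p = 5.4e-05). The fall with Torin 1 held for its brightest probe, and its 2 dim probes had -0.13 and 0.11. SLC4A11 fell by 0.75 with both drugs against Torin 1 (adjusted p = 4.64e-05). SLC4A3, detected on no R1881 array, was at least 1.13-fold lower with R1881 than with vehicle and at least 1.14-fold higher with both drugs than with R1881 (adjusted p = 0.00828 and 0.0056). SLC4A2 passed in none of the 4 comparisons. Median scaling lost SLC4A7 for R1881 against vehicle (0.13, adjusted p = 0.455) and SLC4A7 for the interaction (-0.60, adjusted p = 0.0561).

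Among 9 tested exchangers of protons, sodium and calcium, 4 rose and 0 fell with Torin 1 against vehicle. With both drugs against R1881 5 rose, SLC9B2 among them, and 2 fell. Of all genes 16.2% and 23.1% were higher and 15.7% and 22.3% lower in these comparisons. Under median scaling the exchanger counts were 2 and 0, and 4 and 2. The 4 rises became 3 without vehicle array 1 or 3 or Torin 1 array 2, and the 0 falls 1 without Torin 1 array 1. The 5 rises became 4 without R1881 array 2 or both-drug array 2 or 3. The 2 falls became 1 without R1881 array 1 or 3 or both-drug array 1 or 3. SLC9B2 (NHA2), a sodium and proton antiporter, was detected on the 3 arrays with both drugs, at 6.42, 6.41 and 6.38, and on no array of the other groups, where its probe lay between 4.32 and 4.59. That is at least 3.14-fold higher with both drugs than with R1881 (adjusted p = 1.33e-09) and at least 3.2-fold higher than with Torin 1 (adjusted p = 4.82e-10). The gene passed the filter through this group alone, so the filter favoured these differences and the p-values add no support. Its second, dim probe had log2 changes of 0.17 and -0.052 in these comparisons. SLC9D1 (formerly TMCO3) rose by 0.59 with Torin 1 against vehicle and by 1.23 with both drugs against R1881, at 9.84, 9.64 and 9.79 with both drugs, against 8.56, 8.56 and 8.48 with R1881 (adjusted p = 0.000324 and 1.85e-07). SLC9A8 (NHE8), an exchanger of the Golgi and endosomes, rose by 0.51 with Torin 1 and by 0.55 with both drugs against R1881 (adjusted p = 0.00462 and 0.00162). SLC24A1, the potassium-dependent sodium and calcium exchanger of rod photoreceptors, fell to 5.06, 5.26 and 5.63 with R1881, against 5.95, 6.09 and 5.92 with vehicle (1.59-fold lower, adjusted p = 0.00274). With both drugs it stood at 6.25, 6.40 and 6.40, 2.04-fold above R1881 (adjusted p = 7.6e-05). Its rise of 0.48 with Torin 1 was lost without vehicle array 1 or 3 or Torin 1 array 2 (log2 changes of 0.33 to 0.46, adjusted p of 0.0692 to 0.112). SLC8B1, the sodium and calcium exchanger of mitochondria, rose by 0.30 with Torin 1 against vehicle (adjusted p = 0.00779), a call lost under median scaling. SLC8A3, detected on no array with both drugs, was at least 1.02-fold lower there than with R1881 (adjusted p = 0.00881). SLC9A5 passed in no comparison. Ion gradients are set by the primary pumps. Of 11 tested pump genes, 2 rose and 4 fell with R1881, among them the plasma membrane calcium pump ATP2B1 by 1.36 and the sodium pump subunit ATP1B1 by 0.96, and 1 rose and 2 fell with Torin 1, among them ATP1B3 by 0.94, where 37.2% and 31.9% of all genes were called.

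Of 13 tested nucleotide sugar carriers of the Golgi and endoplasmic reticulum, 3 rose and 0 fell with R1881 against vehicle, 2 rose and 4 fell with Torin 1, and 6 rose and 0 fell with both drugs against Torin 1. Of all genes 15.8%, 16.2% and 18.7% were higher and 21.5%, 15.7% and 26.3% lower in these comparisons, in that order. Under median scaling the carrier counts became 0 and 1, 0 and 4, and 4 and 1. They also depended on single arrays. Leaving out 1 array gave 2 to 4 higher and 0 to 1 lower with R1881, the lower call appearing without R1881 array 1 or Torin 1 array 2. With Torin 1 it gave 0 to 2 higher and 2 to 4 lower, with 0 higher and 2 lower without Torin 1 array 1, 1 higher without any 1 of the other arrays but both-drug array 1, and 2 lower also without vehicle array 2 or Torin 1 array 3. With both drugs against Torin 1 it gave 4 to 6 higher and 0 to 2 lower, with 2 lower without Torin 1 array 1 and 1 lower without R1881 array 2 or 3. SLC35A1, which brings CMP-sialic acid into the Golgi, measured 9.01, 9.12 and 9.08 with both drugs, against 7.53, 7.65 and 7.82 with R1881 (2.64-fold higher, adjusted p = 7.44e-07) and 8.38, 8.02 and 7.86 with Torin 1 (1.97-fold higher, adjusted p = 1.65e-05). R1881 alone gave 0.015 against vehicle (adjusted p = 0.942), and the interaction was 0.97 (adjusted p = 0.0021), so R1881 raised this carrier with Torin 1 and not measurably without it. SLC35C1, the GDP-fucose carrier, rose by 0.45 with R1881 against vehicle and by 0.60 with both drugs against Torin 1 (adjusted p = 0.00136 and 9.73e-05), and SLC35H1 rose by 0.55 with both drugs against Torin 1 (adjusted p = 0.000105). SLC35D4 fell with Torin 1, at 4.68, 4.74 and 4.94 with Torin 1, against 5.45, 5.38 and 5.61 with vehicle (1.62-fold lower, adjusted p = 0.0015), and by 0.73 with both drugs against R1881 (adjusted p = 0.000529). Its Torin 1 values lay near those of undetected probes, so the size of the fall with Torin 1 is uncertain. SLC35B4 fell by 0.83 with both drugs against R1881 (adjusted p = 0.000186) and SLC35B2, which carries the sulfate donor PAPS, by 0.37 with Torin 1 against vehicle (adjusted p = 0.00879). SLC35A4 fell by 0.44 and SLC35A2, the UDP-galactose carrier, by 0.34 with both drugs against R1881, the fall of SLC35A2 not being called with its kept probes averaged. SLC35B1 rose by 0.36 with both drugs against Torin 1 (adjusted p = 0.002). SLC35B3, SLC35D2 and SLC35A5 passed in none of the 4 comparisons. Median scaling lost SLC35C1 for R1881 against vehicle (0.21, adjusted p = 0.24).

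Among the 10 orphan carriers of the SLC35 family, SLC35G1 and SLC35E2B moved most besides SLC35F2. SLC35E2B was 1.81-fold higher with both drugs, at 9.60, 9.59 and 9.65, than with R1881, at 8.96, 8.78 and 8.53 (adjusted p = 9.34e-06), and fell by 0.49 with R1881 against vehicle (adjusted p = 0.00117); it has a near-identical copy, SLC35E2A, so its value is uncertain. SLC35G1 fell by 0.54 with Torin 1 against vehicle and by 0.86 with both drugs against R1881, at 5.36, 5.38 and 5.63 with both drugs, against 6.21, 6.25 and 6.5 with R1881 (adjusted p = 0.00561 and 9.96e-05). SLC35E1 rose by 0.63 with Torin 1 (adjusted p = 0.000388), as did its second probe by 0.58, but the dimmest of its 3 probes had -0.31. SLC35G6 was detected on the 3 R1881 arrays and on none with vehicle, at least 1.32-fold higher (adjusted p = 0.00166). SLC35F5 fell by 0.31 with R1881 against vehicle (adjusted p = 0.00671), and SLC35F1 and SLC35G5 passed in none of the 4 comparisons. Of 4 tested nucleoside carriers, SLC29A2 (ENT2), which lets nucleosides through the plasma membrane, measured 8.56, 8.33 and 8.36 with R1881, against 7.67, 7.64 and 7.90 with vehicle (1.61-fold higher, adjusted p = 0.000245). Both drugs gave 7.2, 7.56 and 7.21, 2.14-fold lower than R1881 (adjusted p = 3.22e-06), and the interaction was -0.82 (adjusted p = 0.00333). Torin 1 alone had -0.28 against vehicle (adjusted p = 0.0713). SLC29A4 (PMAT) fell by 0.42 with both drugs against Torin 1 (adjusted p = 0.00122), and SLC28A1 passed in no comparison.

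Of 7 tested carriers of phosphate and sugar phosphates, 0 rose and 4 fell with Torin 1 against vehicle, also under median scaling. The 4 falls became 3 without vehicle array 2 or Torin 1 array 1. With R1881 1 rose and 2 fell, with 3 falls without vehicle array 1. Of all genes 16.2% were higher and 15.7% lower with Torin 1, and 15.8% and 21.5% with R1881. SLC37A4, which brings glucose 6-phosphate into the endoplasmic reticulum, measured 10.27, 10.08 and 10.22 with R1881, against 9.67, 9.63 and 9.67 with vehicle (1.44-fold higher, adjusted p = 0.000154). With both drugs it measured 8.82, 8.90 and 8.77, against 9.30, 9.13 and 9.13 with Torin 1 (1.28-fold lower, adjusted p = 0.00241). R1881 thus raised SLC37A4 without Torin 1 and lowered it with Torin 1, and the interaction was -0.89 ± 0.11 SE (adjusted p = 0.000193). Both drugs against R1881 gave the largest fall among the members in that comparison, 2.56-fold (adjusted p = 2.02e-08). SLC37A3, a lysosomal carrier known to release bisphosphonates, fell with each agent, at 7.32, 7.57 and 7.65 with R1881 and 7.61, 7.68 and 7.84 with Torin 1, against 8.31, 8.41 and 8.50 with vehicle (1.86-fold and 1.62-fold lower, adjusted p = 8.06e-06 and 0.000148). Both drugs gave 7.63, 7.58 and 7.50, overlapping the arrays of each agent alone, and the interaction was 0.75 (adjusted p = 0.00276); with its 3 probes averaged it was 0.32 and not called. SLC20A2 (PiT-2), a sodium-coupled phosphate importer, fell with R1881, at 5.94, 6.10 and 5.99, against 6.70, 6.95 and 6.92 with vehicle (1.8-fold lower, adjusted p = 4.08e-06), and by 0.73 with both drugs against Torin 1 (adjusted p = 1.18e-05). The phosphate carriers SLC34A1 and SLC34A2 passed in no comparison, and SLC20A1 (PiT-1), a relative of SLC20A2, fell by 0.33 with Torin 1 (adjusted p = 0.0101). SLC50A1, a sugar carrier of the SWEET family, had the largest fall of a member with Torin 1, at 8.68, 8.92 and 8.32, against 9.57, 9.48 and 9.26 with vehicle (1.74-fold lower, adjusted p = 0.00107), and was 2.0-fold lower with both drugs, at 8.85, 8.86 and 8.85, than with R1881, at 9.60, 9.89 and 10.06 (adjusted p = 9.13e-05). Its rise of 0.41 with R1881 was lost without vehicle array 2 or 3 or R1881 array 2 or 3 or both-drug array 1 (log2 changes of 0.31 to 0.43, adjusted p of 0.0506 to 0.152). SLC45A1, a proton-coupled sugar carrier, rose by 0.60 with R1881 (adjusted p = 0.00276) and was detected on 1 vehicle array. SLC5A10 fell by 0.37 with both drugs against Torin 1 (adjusted p = 0.00813), a call lost in the authors' processed table. SLC5A8, SLC5A12 and SLC45A2 passed in no comparison.

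Among 10 tested carriers and acyl-CoA synthetases of fatty acids, acetyl-CoA and bile acids, 4 rose and 1 fell with R1881. Of all genes 15.8% were higher and 21.5% lower there. Of the 4 rises, those of SLC10A7, SLC27A5 and SLC33A1 were not called under median scaling. SLC10A7, a member of the bile acid carrier family that is needed for normal skeletal development, measured 8.46, 8.53 and 8.43 with both drugs, against 7.14, 7.19 and 7.23 with R1881 (2.44-fold higher, adjusted p = 5.17e-08) and 6.98, 6.85 and 6.74 with Torin 1 (3.06-fold higher, adjusted p = 2.87e-09). R1881 raised it by 0.46 against vehicle (adjusted p = 0.000727), Torin 1 had 0.13 (adjusted p = 0.267), and the interaction was 1.15 ± 0.12 SE (adjusted p = 3.41e-05). Its second, dim probe gave 0.68 for the interaction. SLC27A5, which conjugates bile acids with CoA in liver, had a negative interaction. It rose by 0.32 with R1881 against vehicle, a call lost without vehicle array 2 (log2 change of 0.25, adjusted p = 0.061), and fell by 0.51 with both drugs against Torin 1 (adjusted p = 0.000403). With both drugs SLC27A5 measured 6.54, 6.34 and 6.48, against 7.48, 7.43 and 7.39 with R1881 (1.98-fold lower, adjusted p = 1.42e-06). SLC27A2, a very long chain acyl-CoA synthetase, fell by 0.50 with R1881 (adjusted p = 0.00225) and measured 6.01, 6.16 and 5.99 with both drugs, against 6.95, 7.05 and 7.07 with Torin 1 (1.95-fold lower, adjusted p = 6.56e-06). SLC27A1 (FATP1), a fatty acid transport protein, rose by 0.45 with Torin 1 and by 0.47 with both drugs against R1881 (adjusted p = 0.0017 and 0.000635). SLC33A1, which brings acetyl-CoA into the endoplasmic reticulum, rose in all 4 comparisons, by 0.50 with R1881 and 0.41 with Torin 1 against vehicle, by 0.73 with both drugs against R1881 and by 0.81 against Torin 1. Its relative SLC33A2 (formerly MFSD3) fell by 0.70 with both drugs against R1881 (adjusted p = 3.17e-05). SLC10A3 rose by 0.44 with both drugs against Torin 1 (adjusted p = 0.00103). SLC27A6 passed in none of the 4 comparisons. Median scaling lost SLC10A7 for R1881 against vehicle (0.22, adjusted p = 0.207), SLC33A1 for R1881 against vehicle (0.26, adjusted p = 0.173), SLC33A1 for Torin 1 against vehicle (0.28, adjusted p = 0.185) and SLC10A3 for both drugs against Torin 1 (0.26, adjusted p = 0.0936).

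Of 6 tested vitamin carriers 0 rose and 4 fell with both drugs against R1881, where 23.1% of all genes were higher and 22.3% lower. The count was the same under median scaling, cyclic loess and the authors' processed table, fell to 3 lower without R1881 array 3 and had 1 higher without R1881 array 1 or both-drug array 1. SLC5A6, which takes up biotin and pantothenate, measured 6.82, 6.86 and 6.67 with both drugs, against 7.49, 7.55 and 7.54 with R1881 (1.67-fold lower, adjusted p = 3.5e-06). The folate carriers SLC19A1 and SLC46A1 fell by 0.72 and 0.65 (adjusted p = 0.00164 and 0.000421). The fourth, the riboflavin carrier SLC52A2, fell by 0.30, a call lost without R1881 array 3 (log2 change of -0.21, adjusted p = 0.0663). SLC52A2 fell more clearly with Torin 1 against vehicle, at 8.16, 8.30 and 8.28 with Torin 1, against 8.86, 8.89 and 9.01 with vehicle (1.60-fold lower, adjusted p = 6.4e-05), and both drugs, at 8.78, 8.74 and 8.78, lay 1.44-fold above Torin 1 (adjusted p = 0.00023). With R1881 against vehicle SLC5A6 rose by 0.39 (adjusted p = 0.00106), and with Torin 1 it fell by 0.39 (adjusted p = 0.00141). Its interaction of -0.35 (adjusted p = 0.0432) was lost without any 1 of 11 of the 12 arrays, with log2 values of -0.37 to -0.29 and adjusted p of 0.0526 to 0.104. Its rise with R1881 was lost under median scaling (0.16, adjusted p = 0.353). The thiamine carrier SLC19A2 passed in none of the 4 comparisons, and the ascorbate carrier SLC23A2 had 0.37 with Torin 1 against vehicle (adjusted p = 0.0617).

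Carriers of peptides, organic ions and drugs held 11 tested members of 32 symbols, and 3 rose, SLC15A2 among them, and 1 fell with R1881. Of all genes 15.8% were higher and 21.5% lower there. The class had 2 falls without R1881 array 1 or 2. It had 2 rises without vehicle array 1 and 4 rises without vehicle array 3 or Torin 1 array 1 or 3. SLC15A2 (PEPT2), a proton-coupled importer of small peptides, was detected with R1881 alone, at 5.61, 5.33 and 5.45, against 4.26, 4.20 and 4.32 with vehicle, where it was detected on no array. This makes it at least 1.69-fold higher with R1881 (adjusted p = 1.07e-07). With both drugs, at 4.56, 4.44 and 4.61, it was again not detected and at least 1.59-fold lower than with R1881 (adjusted p = 1.53e-06). The gene passed the filter through the R1881 arrays alone, so the filter favoured these differences and the p-values add no support. SLC22A23, an orphan of the organic ion family, stepped up with each agent. It measured 8.93, 8.85 and 8.84 with both drugs, 7.69, 7.70 and 7.85 with R1881, 7.59, 7.54 and 7.68 with Torin 1 and 7.08, 7.29 and 7.06 with vehicle. The groups of R1881 and Torin 1 lay between those of both drugs and vehicle without reaching either. The rises were 0.60 with R1881 and 0.46 with Torin 1 against vehicle (adjusted p = 7.45e-05 and 0.00105) and 1.27 with both drugs against Torin 1 (adjusted p = 3.47e-08). Its interaction was 0.66 (adjusted p = 0.00234), and its second probe gave 0.47. Median scaling lost SLC22A23 for Torin 1 against vehicle (0.33, adjusted p = 0.0806). SLC22A17, a receptor for the iron-binding protein lipocalin, fell by 0.44 with R1881 against vehicle and rose by 0.64 with both drugs against R1881 (adjusted p = 0.0012 and 4.26e-05). SLC22A5 (OCTN2), the carnitine importer, rose by 0.56 with both drugs against Torin 1 (adjusted p = 0.000314); its rise of 0.34 with R1881 was lost without vehicle array 1 or R1881 array 1 (log2 changes of 0.27 to 0.28, adjusted p of 0.0562 to 0.0629). SLC15A4, a lysosomal carrier of histidine and peptides, rose by 0.43 with both drugs against R1881 (adjusted p = 0.00294). SLC22A6, SLC22A7, SLC22A10 and SLC22A11 passed in none of the 4 comparisons; of SLC22A10, 3 probes were kept, and their R1881 changes were 0.032, -0.34 and -1.16. Drug export is the work of the ABC transporters. Of 13 tested, 2 rose and 4 fell with R1881, with ABCC4 (MRP4) 3.77-fold higher and the cholesterol exporter ABCA1 at least 4.74-fold lower. Of 4 tested SLCO organic anion carriers, 1 rose and 1 fell with R1881, where 15.8% of all genes were higher and 21.5% lower.

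Of 6 tested carriers of neurotransmitters, amines and osmolytes, 0 rose and 2 fell with R1881. Of all genes 15.8% were higher and 21.5% lower there. SLC18B1, a vesicular polyamine carrier, measured 4.69, 5.06 and 5.05 with R1881, against 6.11, 6.33 and 6.16 with vehicle (2.40-fold lower, adjusted p = 4.4e-07). The lowest R1881 value of SLC18B1 lay near those of undetected probes, so the size of this fall is uncertain. With both drugs, at 4.47, 4.42 and 4.51, it was detected on no array, and with Torin 1, at 6.53, 6.36 and 6.39, on all 3, so it was at least 3.11-fold lower with both drugs than with Torin 1 (adjusted p = 3.31e-09). SLC6A9 (GlyT1), the glycine importer, measured 6.10, 6.09 and 6.26 with Torin 1, against 5.54, 5.72 and 5.69 with vehicle (1.41-fold higher, adjusted p = 0.0011). With both drugs, at 4.70, 4.51 and 4.68, it was detected on no array and was at least 1.35-fold lower than with R1881, at 5.13, 5.37 and 5.18 (adjusted p = 0.000127), and at least 2.57-fold lower than with Torin 1 (adjusted p = 1.24e-08). Torin 1 therefore raised SLC6A9 without androgen and lowered it with androgen. A second, dim probe of SLC6A9 had -0.012 with Torin 1 against vehicle and -0.096 with both drugs against R1881, and with both probes averaged the fall of 0.43 with R1881 was not called. SLC6A8, the creatine importer, had -0.077 with R1881 and -0.18 with Torin 1 against vehicle (adjusted p = 0.54 and 0.152). SLC6A10P, a pseudogene copy of it, fell by 0.52 with both drugs against R1881 (adjusted p = 0.000801), and its probe may read both copies. SLC6A17 and SLC18A1 passed in none of the 4 comparisons. Of the 2 tested vesicle and lysosome anion carriers, SLC17A9 passed in none of the 4 comparisons.

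Of 9 members of newer families with no substrate class set, SLC61A1 (formerly MFSD5), a molybdate carrier, rose by 0.51 with R1881 against vehicle and by 0.64 with both drugs against Torin 1 (adjusted p = 0.000278 and 2.9e-05). SLC71A1 (formerly MFSD14A) rose by 0.41 and 0.57 in these comparisons (adjusted p = 0.00266 and 0.000141). Its relative SLC71A2 fell by 0.34 with Torin 1, a call lost without vehicle array 1 or 3 or Torin 1 array 1 (log2 changes of -0.34 to -0.25, adjusted p of 0.0601 to 0.0947). The fall held for the brightest SLC71A2 probe, and its other kept probes had -0.15, 0.094 and -0.032 there. SLC66A3 had an interaction of -0.43 (adjusted p = 0.0181). SLC60A1, SLC66A1, SLC66A2 and SLC75A1 passed in no comparison. Median scaling lost SLC61A1 for R1881 against vehicle (0.30, adjusted p = 0.0738), SLC71A1 for R1881 against vehicle (0.19, adjusted p = 0.195) and SLC66A3 for the interaction (-0.36, adjusted p = 0.272). A further 10 members that match the naming rule are pseudogenes, noncoding transcripts or, for SLC4A1AP, a protein that is no transporter. Among them 0 rose and 2 fell with R1881, with 1 rise without vehicle array 1 or R1881 array 3. Of all genes 15.8% were higher and 21.5% lower there. SLC9A3-OT1, a transcript at the SLC9A3 locus, measured 8.61, 8.50 and 8.83 with Torin 1, against 7.84, 7.84 and 7.76 with vehicle (1.78-fold higher, adjusted p = 4.67e-05), and 7.75, 7.54 and 7.42 with both drugs, 2.11-fold lower than with Torin 1 (adjusted p = 1.38e-06). SLC71A3P, a pseudogene of the SLC71 family, rose by 0.60 with Torin 1 (adjusted p = 0.00274). SLC22A20P, SLC26A10P, SLC35E2A, SLC4A1AP, SLC67A1-AS and SLC9A7P1 passed in no comparison.

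A further 14 members had small changes whose calls rested on single arrays. With both drugs against R1881 the sodium and hydrogen exchanger SLC9A2 had -0.48, not called without R1881 array 1 or 3 or both-drug array 1 or 3 (log2 changes of -0.46 to -0.35, adjusted p of 0.0571 to 0.091), and its testis relative SLC9B1 had 0.38, not called without R1881 array 2 or both-drug array 2 or 3 (log2 changes of 0.24 to 0.37, adjusted p of 0.0653 to 0.118). The renal phosphate carrier SLC17A1, detected on no R1881 array, was at least 1.09-fold higher, not called without R1881 array 1 or both-drug array 2 (adjusted p of 0.0606 to 0.0689). SLC6A16 had 0.45, not called without R1881 array 1 or 3 or both-drug array 2 (log2 changes of 0.26 to 0.41, adjusted p of 0.0692 to 0.117), and SLC67A1, a carrier of organic cations, had -0.39, not called without R1881 array 2 or both-drug array 1 (log2 changes of -0.35 to -0.33, adjusted p of 0.0584 to 0.0712). The other 4 values were all below 0.5 on the log2 scale in size. With both drugs against Torin 1 the ergothioneine carrier SLC22A4, detected on no Torin 1 array, was at least 1.14-fold higher, not called without vehicle array 1 or 3 or R1881 array 2 or Torin 1 array 1 or 2 or 3 or both-drug array 1 or 2 (adjusted p of 0.0521 to 0.194). The lysosomal nucleoside carrier SLC29A3 had -0.27, not called without Torin 1 array 2 or 3 or both-drug array 2 (log2 changes of -0.23 to -0.20, adjusted p of 0.112 to 0.127). The acyl-CoA synthetase SLC27A3 had -0.34, not called without R1881 array 1 or 2 or 3 or Torin 1 array 1 or 2 or 3 or both-drug array 1 or 3 (log2 changes of -0.36 to -0.26, adjusted p of 0.0522 to 0.157). The orphans SLC35E3 and SLC35F6 had -0.27 and 0.36, not called without Torin 1 array 2 or 3 or both-drug array 1 or 2 (log2 changes of -0.28 to -0.20, adjusted p of 0.0617 to 0.136) and without Torin 1 array 1 or both-drug array 1 (log2 changes of 0.29 to 0.32, adjusted p of 0.0515 to 0.0593), in that order of genes. With Torin 1 against vehicle SLC37A1 had -0.41, not called without vehicle array 2 or Torin 1 array 1 (log2 changes of -0.34 to -0.31, adjusted p of 0.0592 to 0.0644), and SLC68A1 had -0.31, not called without vehicle array 1 or 2 or Torin 1 array 1 or 2 or 3 (log2 changes of -0.32 to -0.24, adjusted p of 0.0597 to 0.128). SLC51A, a subunit of a bile acid exporter, was detected on vehicle arrays alone and passed the filter through them. It was at least 1.07-fold lower with Torin 1, not called without vehicle array 1 or 2 or 3 or Torin 1 array 2 (adjusted p of 0.0517 to 0.0815). The filter favoured this difference, so the p-values add no support. SLC35A3, the UDP-N-acetylglucosamine carrier, had 0.32 with R1881 against vehicle, not called without vehicle array 2 (log2 change of 0.24, adjusted p = 0.0728). In the authors' processed table SLC30A7 for R1881 against vehicle (0.20, adjusted p = 0.0829), SLC4A7 for R1881 against vehicle (0.16, adjusted p = 0.102) and SLC8A3 for both drugs against R1881 (-0.092, adjusted p = 0.133) were not called.

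The effect of each agent could be set beside its effect in the presence of the other, since the comparisons then share no array. Of 53 members called for R1881 without Torin 1 and 65 called with it, 34 were called the same way in both, which is 64.2% of the first list and 52.3% of the second. For all genes the shares were 67.4% and 55.7%. SLC41A1, SLC35F2, SLC26A3, SLC39A10 and SLC30A1 rose and SLC44A1, SLC12A2, SLC18B1 and SLC20A2 fell in both. The 3 members called in opposite directions were SLC37A4, SLC27A5 and SLC4A7, each higher with R1881 against vehicle and lower with both drugs against Torin 1. Both calls of SLC37A4 were kept under all alternatives run. The rises of SLC27A5 (0.082, adjusted p = 0.6) and SLC4A7 were not called under median scaling, that of SLC27A5 was lost without vehicle array 2, and the fall of SLC4A7 without any 1 of 3 arrays named above. Of 47 members called for Torin 1 without R1881 and 69 called with it, 32 were called the same way, 68.1% of the first list and 46.4% of the second, against 67.5% and 47.4% for all genes. SLC4A4, SLC9D1 and SLC39A10 rose and SLC50A1, SLC26A6, SLC37A4 and SLC35D4 fell in both. The 2 called in opposite directions were SLC12A2, lower with Torin 1 against vehicle and higher with both drugs against R1881, and SLC6A9, which did the reverse. Opposite calls were not counted over all genes, so whether they are more frequent among the solute carriers was not tested.

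**Figure D4:**
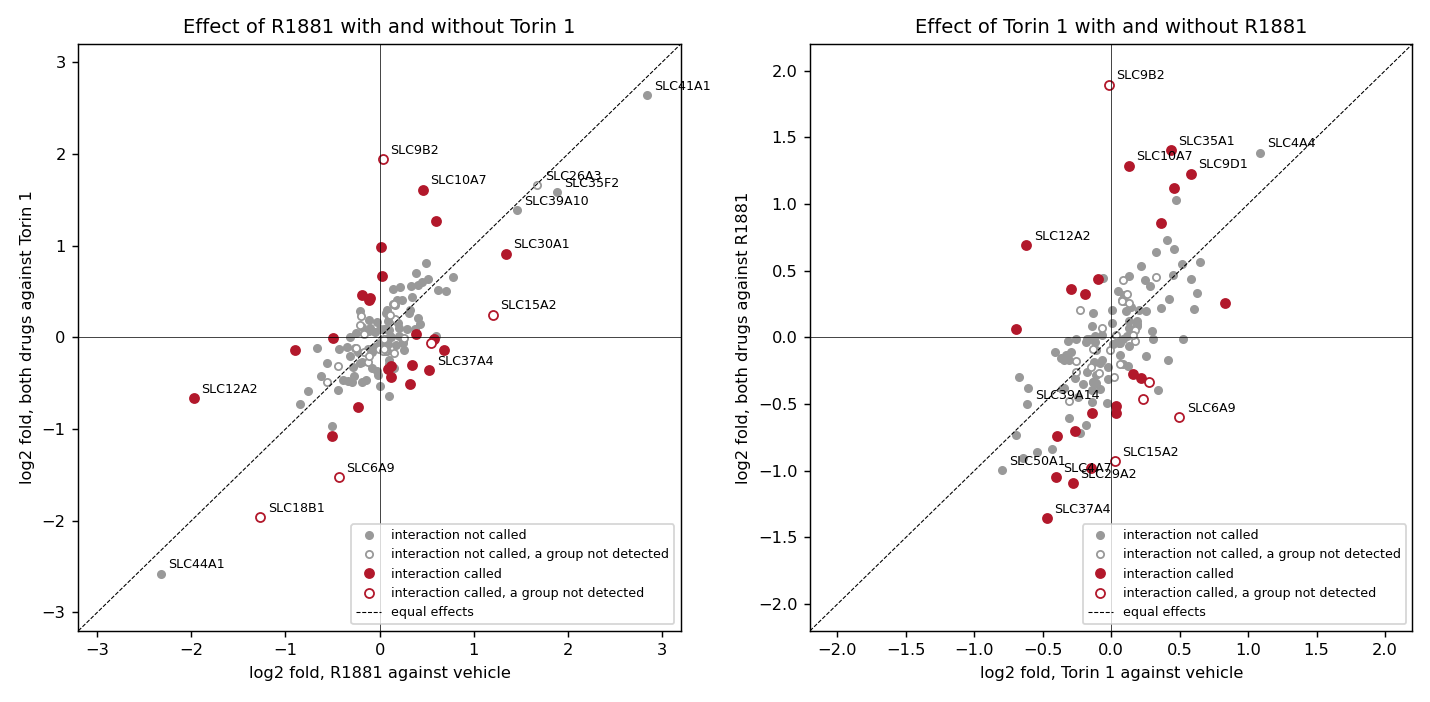
Left, log2 fold of R1881 with Torin 1 (vertical, both drugs against Torin 1) against that without it (horizontal, R1881 against vehicle) for the 144 members; right, log2 fold of Torin 1 with R1881 (vertical, both drugs against R1881) against that without it (horizontal, Torin 1 against vehicle). The 27 members with a called interaction are red and the dashed line marks equal effects. Hollow points are the 25 members detected on no array of at least 1 group, whose positions are not measured sizes; on the left SLC12A2 lies at -0.66 vertically and -1.97 horizontally.

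Among the 22 members detected in all 4 groups with a called interaction, the largest positive terms belonged to SLC12A2 (1.31), SLC10A7 (1.15), SLC35A1 (0.97), SLC37A3 (0.75) and SLC22A23 (0.66). They arose in different ways. SLC10A7 and SLC22A23 rose with R1881 in both settings and more with Torin 1, SLC35A1 rose with R1881 where Torin 1 was present, and SLC12A2 fell in both settings and less with Torin 1. SLC37A3 fell with R1881 against vehicle and had -0.14 with both drugs against Torin 1 (adjusted p = 0.27). The largest negative terms among them belonged to SLC37A4 (-0.89), SLC27A5 (-0.83) and SLC29A2 (-0.82). SLC29A2, with -0.13 for both drugs against Torin 1 (adjusted p = 0.354), rose with R1881 against vehicle. The other 5 called interactions were those of SLC6A9, SLC15A2, SLC18B1, SLC35G6 and SLC9B2, each detected on no array of at least 1 group, and no size is given for them. With both drugs against vehicle SLC44A1 and SLC41A1 had log2 changes of -2.71 and 2.71 (adjusted p = 8.36e-12 and 9.58e-12). SLC9B2, which passed the filter through the both-drug arrays alone, was at least 3.24-fold higher.

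**Figure D5:**
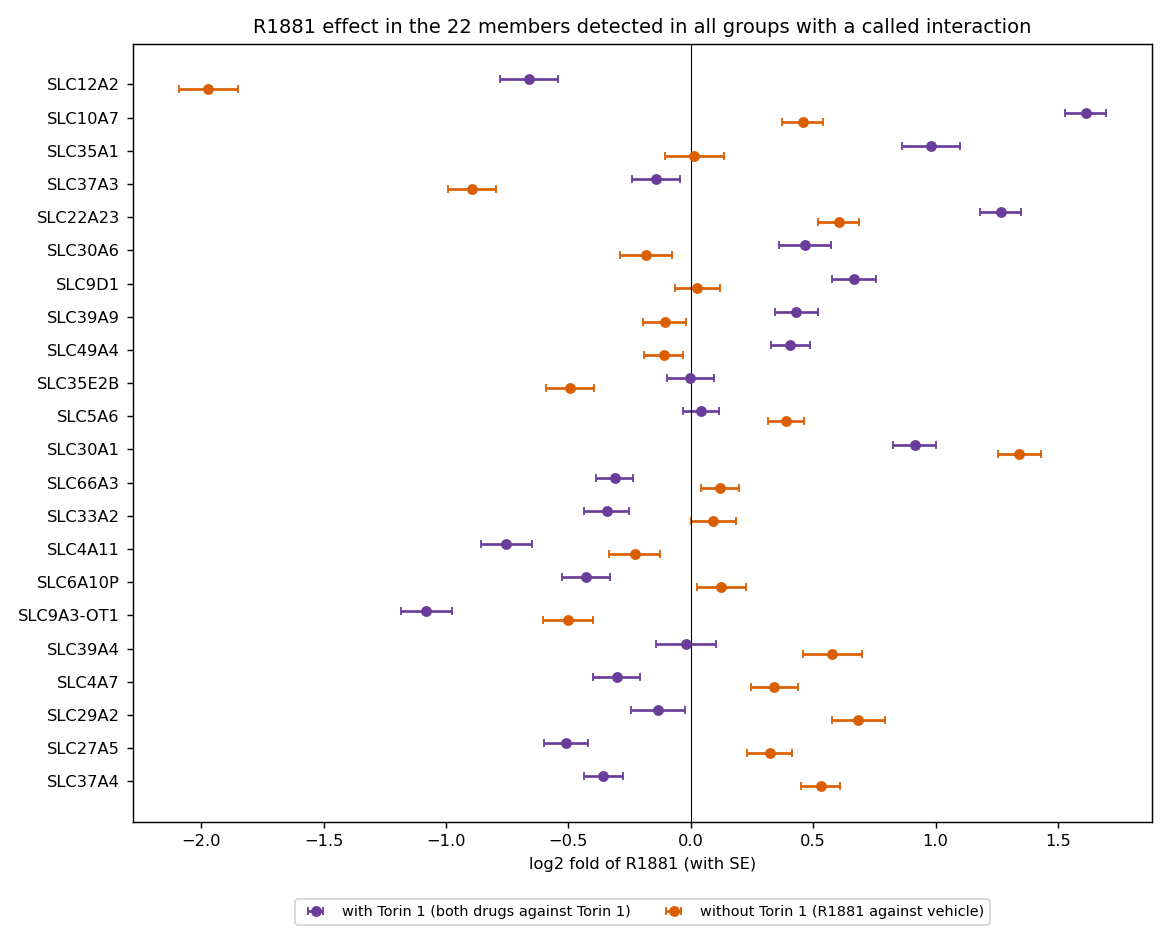
Log2 fold of R1881, with its SE, in the 22 members detected in all 4 groups with a called interaction, with Torin 1 (purple) and without it (orange), ordered by the interaction term from the most positive at the top. SLC12A2 had -0.66 with Torin 1 and -1.97 without it, and SLC37A4 at the bottom -0.36 and 0.53.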

How the data were processed

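Total RNA of 12 LNCaP samples in 4 groups of 3 was hybridised to 1-colour Illumina HumanHT-12 V4 BeadChips. The authors deposited a table of probe signal intensity that, from its values, was neither background-subtracted nor normalized between arrays. Per the file headers, every signal has its own detection p-value. The authors also deposited a processed log2 table with medians of 6.19 to 6.22; the sources used here do not say how it was normalized, and each of its columns correlated best with the signals of the same array (r of 0.9778 to 0.9858).

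From the signals, background was corrected by normexp with limma 3.58.1 in R 4.3.3 (background estimated through the detection p-values, offset 16). Log2 values were then taken and quantile normalized between arrays. Of 47323 probes 20413 had a detection p under 0.05 on at least 3 arrays. Of these 15137 carried 1 gene symbol in GEO's platform annotation, 5274 none and 2 several. The brightest probe stood for each of 11517 genes, and 32 members had more than 1 kept probe.

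One limma model of 4 group means with moderated variances (8 residual degrees of freedom) gave each comparison. Benjamini-Hochberg adjusted p-values were taken over all 11517 genes, and a gene was called at an adjusted p under 0.05. The model was tested on simulated data. Where a probe was detected on no array of a group, the fold is a bound. The number of arrays limits the precision.

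The members and lists were chosen with earlier results of these data known, and class assignments of some renamed genes were adjusted after the files were read. Genes were named where they were among the 8 largest called rises or falls with no overlap between the groups' arrays, among the 6 largest interaction terms in either direction, or had the smallest adjusted p of a class with at least 3 tested members. Other members were added to account for all 144. Promoter sequences came from RefSeq (GRCh38.p14); all 144 members matched its gene IDs and 117 had a promoter there.

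Deviations of samples with the same replicate number correlated with a mean r of -0.0032 (range -0.14 to 0.18), so the numbers were not taken as pairs. Alternatives were a larger offset, no background correction, median scaling, cyclic loess, other detection filters, the mean of a gene's probes, the authors' processed table, a replicate block, each array left out, and only the groups compared.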

Additional observations from a re-analysis of the deposited data

Results flagged for a closer look

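For 19 of the solute carriers named by rule, the effect of R1881 differed with and without Torin 1 by the interaction term of the limma model (log2 scale, 8 residual degrees of freedom). A positive term means a more positive R1881 effect in the presence of Torin 1.

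The term was positive for SLC12A2 at 1.31, SLC10A7 at 1.15, SLC35A1 at 0.97, SLC37A3 at 0.75, SLC22A23 at 0.66, SLC39A9 at 0.54 and SLC49A4 at 0.52, with adjusted p between 3.41e-05 and 0.0102. It was negative for SLC37A4 at -0.89, SLC27A5 at -0.83, SLC29A2 at -0.82, SLC4A7 at -0.64, SLC9A3-OT1 at -0.58, SLC66A3 at -0.43 and SLC5A6 at -0.35, with adjusted p between 0.000193 and 0.0432. The fitted terms of SLC9B2 (1.91), SLC6A9 (-1.10), SLC15A2 (-0.95), SLC18B1 (-0.69) and SLC35G6 (-0.61) rest in part on background, since each probe was detected on no array of at least 1 group, SLC9B2 and SLC15A2 being detected in 1 group each. They are neither measured sizes nor bounds. The terms of SLC4A7, SLC5A6, SLC9A3-OT1, SLC18B1, SLC49A4 and SLC66A3 were not called under median scaling.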

How the results depend on the processing

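With median scaling 16 members had a called interaction, against 27 with quantile normalization, and all 16 were among the 27. The calls for R1881 against vehicle then split into 15 higher and 36 lower (31 and 22 with quantile normalization), those for Torin 1 into 12 and 25 (23 and 24), for both drugs against Torin 1 into 22 and 37 (33 and 32), for both drugs against vehicle into 22 and 53 (39 and 38), and the interaction into 10 positive and 6 negative (11 and 16). Of 261 calls followed, 156 were kept under every alternative that tested them and 66 were lost when 1 array was left out. Another 39 were lost only under another scaling, filter or table, and 0 changed sign. The filter of detection p under 0.01 on 3 arrays tested 256 of the calls, and detection on all 12 arrays tested 220. Calls of genes that failed these filters were not tested under them. Median scaling lost 63, the authors' processed values 34, no background correction 16, fits of only the groups compared 16 of 234, the unfiltered probes 11, averaged probes 10, and the larger offset and cyclic loess 9 each. With a replicate block 58, 44, 69, 66 and 75 members were called for R1881, for Torin 1, for both drugs against R1881, against Torin 1 and against vehicle, and 26 for the interaction. The numbers share no stated source, and for 4 of 12 arrays the closest array of another group carried the same number. The 121 members that did not pass the detection filter had too little signal over background to be compared. The cause of these differences was not tested.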
